A study of Mus musculus with 3 samples.

Results

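Mouse embryonic stem cells exposed to 10 uM tubercidin for 6 h were compared with cells that received the same volume of the solvent DMSO for 6 h. All cells were of the E14 line, an established mouse embryonic stem cell line, here of 129/Ola background, and were grown on gelatin in serum with leukaemia inhibitory factor. The drug or solvent was added 24 h after seeding, and RNA of single cells was then captured by its polyadenylated end on the 10x Genomics Chromium. The control library gave 2031 cells and the 6 h library 2926 cells, out of 7322 cells in the 3 libraries of the study. A cell was a barcode with at least 11033 unique molecular identifiers (UMIs, each standing for 1 captured RNA molecule) in the control or 2107 at 6 h, at least 500 detected genes and at most 20% mitochondrial UMIs. The third library, 2365 cells exposed for 3 h, is given only as values beside the 6 h library. Each condition was 1 library from 1 line, so no difference below could be set against the spread between cultures and none was tested. Intervals are exact 95% intervals and cover counting error only.

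Tubercidin is 7-deazaadenosine, that is, adenosine with a carbon in place of 1 nitrogen of its purine ring. Cells phosphorylate it as they do adenosine, and the nucleotides enter RNA and other pathways that use ATP. Embryonic stem cells in this medium hold the naive pluripotent state through LIF-STAT3 and BMP signals and a circuit of transcription factors, and they divide rapidly with a short G1 phase. Messenger RNAs differ in how fast they turn over, and those of immediate-early genes, many zinc finger factors and several pluripotency and cell cycle regulators are known as short-lived.

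Both libraries carried the markers of the labelled cell type. All 10 stem cell markers stood at 1 CPM (a gene's UMIs scaled to the library total) or more in both libraries, with a summed level of 4458 CPM in control cells and 3892 CPM at 6 h. Summed markers of 2-cell-like cells stood at 0.0381 and 0.932 CPM, of primitive endoderm at 8.88 and 10.9 CPM, of fibroblasts at 0.963 and 2.19 CPM, and of trophoblast at 1.91 and 1.78 CPM. Zscan4c was without a UMI in both libraries. Called cells held 104892739 UMIs in the control and 24681924 at 6 h, with medians of 48452 and 8004.5 UMIs and of 7083 and 2799.5 genes per cell. The median was thus 6.05-fold higher in the control. RNA content and sequencing depth cannot be told apart here, because read numbers were not used. Everything below concerns each gene's share of the captured RNA, and 1 cell barcode was shared between the libraries.

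UMIs were summed over the cells of each library and given as CPM. Differences are the log2 ratio of CPM + 1, 6 h over control, for the 8056 genes whose 2 libraries averaged 10 CPM or more. At 6 h, 380 of these genes had fallen at least 2-fold and 190 had risen at least 2-fold, which is 4.72% and 2.36% of the genes compared, 7.08% in all. The ratio of the median gene was -0.13, and the 5th and 95th percentiles lay at -0.99 and 0.72. Changes of 4-fold or more were few, with 23 genes higher and 18 lower. For 443 of the 570 genes past 2-fold the whole counting interval also lay past 2-fold. The genes that fell had a median control level of 34.7 CPM, against 39.4 CPM over all genes compared. The genes that rose had a median control level of 10.8 CPM. The minimum on the mean of both libraries lets in a gene under 10 CPM in the control only where it is higher at 6 h. It leaves out a gene just above 10 CPM in the control that fell 2-fold. The control levels of the rises and of the falls are therefore both in part set by the filter. Of the 190 genes, 46 carried the names of predicted genes or clones, against 22 of the 380 that fell and 299 of the 8056. Where such genes are low, the filter may in part set these counts as well. Without scaling to library totals, as UMIs per cell, 5 of the 8056 genes were at least 2-fold higher and 7989 lower, so every rise described here is a rise in share.

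**Figure D1:**
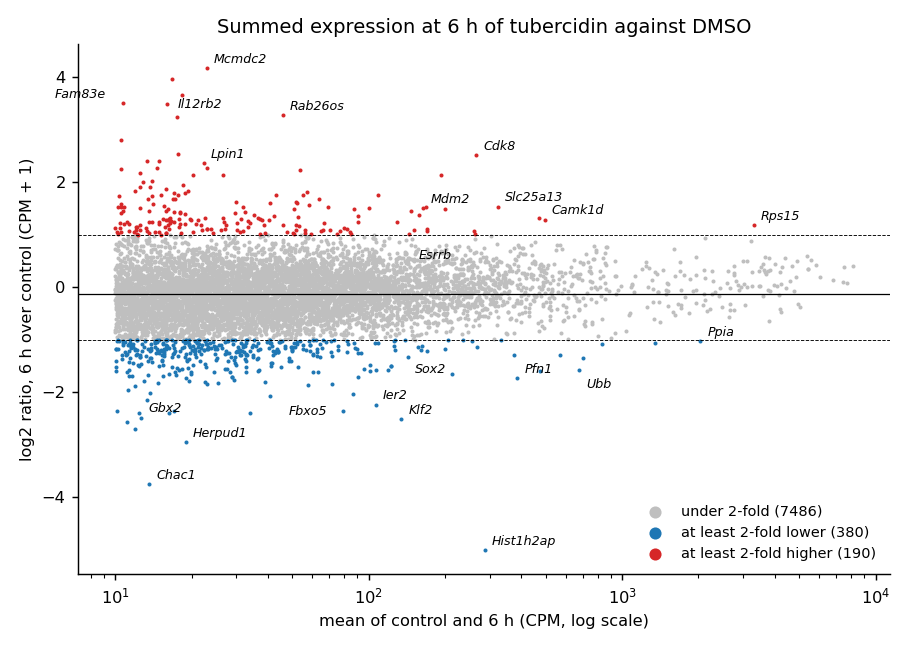
Log2 ratio of 6 h over control (vertical axis) against the mean of both libraries in CPM (horizontal log axis), 1 point per gene. The dashed lines mark 2-fold and the solid line the median gene at -0.13. Blue points are the 380 genes at least 2-fold lower and red points the 190 at least 2-fold higher, and Hist1h2ap and Mcmdc2 lie at the 2 ends.

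The naive pluripotency circuit changed unevenly. Of 13 naive factors at 10 CPM or more, 5 fell, 38.5% against 4.72% of all genes, and 0 rose. Their median ratio was -0.65 beside -0.13 for all genes. Klf2, a Krüppel-like factor that sustains the naive state, stood at 230, 89.0 and 39.3 CPM in control, 3 h and 6 h cells (ratio -2.52). Its relative Klf4 went from 60.5 to 25.5 CPM (-1.21). The homeobox factor Gbx2 went from 22.1 to 3.12 CPM (-2.49), the T-box factor Tbx3 from 88.3 to 36.8 CPM (-1.24), and the growth factor gene Fgf4 from 85.9 to 35.1 CPM (-1.27). Esrrb, the orphan nuclear receptor of the same circuit, stood at 102 CPM in control cells and 193 CPM at 6 h (0.92), short of 2-fold. Mybl2 and Tfcp2l1 were also above their control levels, at 0.75 and 0.40. The factors with the lowest and the highest ratio thus belong to 1 circuit and moved apart.

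Among 15 core pluripotency genes 3 fell, 20% against 4.72% of all genes, and 0 rose, with a median of -0.14. Sox2, the partner of Oct4 on DNA, went from 205 CPM to 81.1 CPM (-1.33), a level it had already at 3 h with 80.6 CPM. Zfp281, a zinc finger regulator of the pluripotency network, went from 44.7 to 13.0 CPM (-1.71). Nanog stood at 77.4 and 50.2 CPM (-0.62). Pou5f1, which encodes Oct4, stood at 137, 159 and 213 CPM in control, 3 h and 6 h cells (0.63, counting interval 0.59 to 0.68), and Lin28a at 51.2 and 82.1 CPM (0.67). Sox2 and Pou5f1 therefore differed in direction, with only Sox2 past 2-fold.

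Among target and feedback genes of signalling pathways, 33.3% of the BMP-SMAD and Nodal list and 18.2% of the LIF-STAT3 list fell. So did 11.1% of the FGF-ERK list and 12.5% of the immediate-early list, against 4.72% of all genes. These lists are short, with 8 to 12 genes compared in each. Of 12 BMP-SMAD and Nodal genes 4 fell and 1 rose, with a median of -0.60. Id1 and Id3, inhibitors of bHLH factors and direct BMP targets, went from 90.9 to 24.3 CPM (-1.86) and from 22.6 to 4.82 CPM (-2.02). Tgif1, a SMAD corepressor, went from 66.7 to 15.0 CPM (-2.08), and the ligand gene Bmp4 from 48.3 to 17.5 CPM (-1.41). Lefty2, a Nodal antagonist, stood at 7.76 and 16.6 CPM and was at the 2-fold line (1.00), short of it under 6 alternatives. Of 9 FGF-ERK feedback genes compared only Spry4, a Sprouty inhibitor of receptor signalling, passed 2-fold, at 17.7 and 2.67 CPM (-2.35). Etv4 and Etv5, ETS factors induced by the same pathway, stood at 0.67 and 0.28. Dusp6, 13.7 to 3.04 CPM (-1.86), and Phlda1, 10.8 to 4.66 CPM (-1.06), averaged under 10 CPM and were not compared. The same holds for Dusp5, which stood at 0.15. Of 11 LIF-STAT3 genes 2 fell, Klf4 and the kinase gene Pim3 (-1.05). Immediate-early genes were mostly too low to compare, with 17 of 25 under a mean of 10 CPM over both libraries. Some were under it only because they were lower at 6 h, as Egr1, 11.5 to 1.34 CPM (-2.42), and Klf6, 13.9 to 5.79 CPM (-1.13). Others under it were higher at 6 h, as Fosl1, 0.686 to 2.39 CPM (1.01). Of the 8 compared, Ier2 alone passed 2-fold, at 177, 70.8 and 36.6 CPM in control, 3 h and 6 h cells (-2.24).

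**Figure D2:**
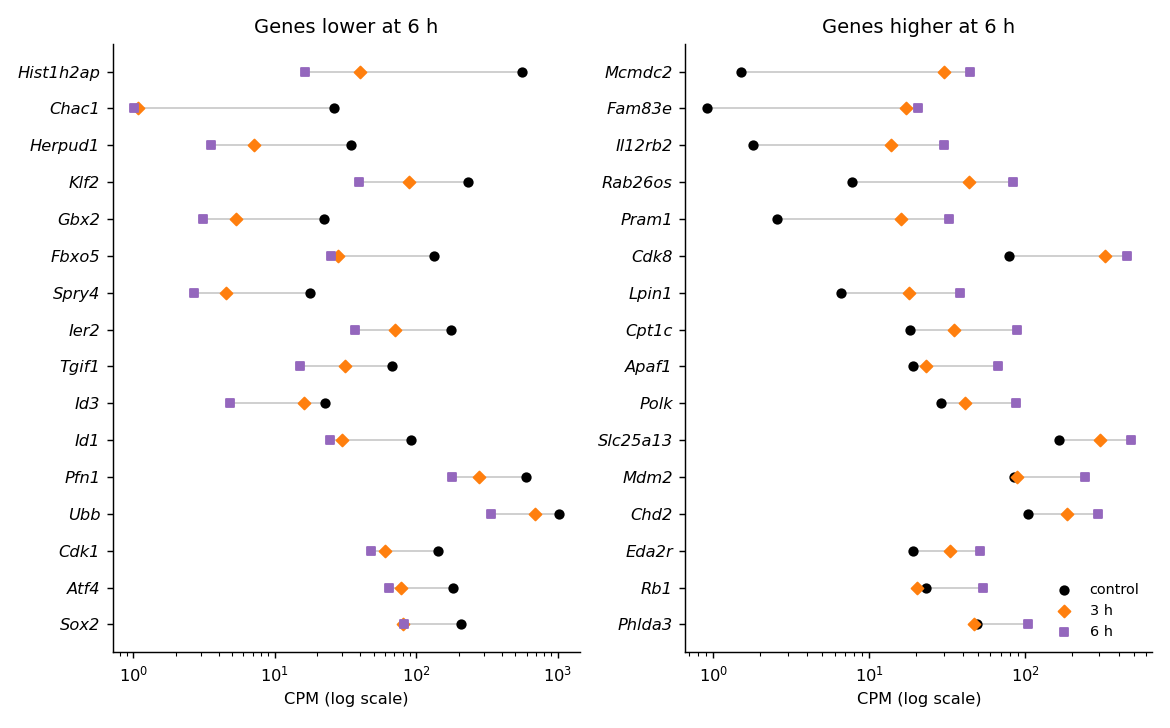
Levels in CPM (horizontal log axis) of 16 genes lower and 16 genes higher at 6 h, with circles for the control, diamonds for 3 h and squares for 6 h, each 1 library. Klf2 runs from 230 to 39.3 CPM and Mdm2 from 85.3 to 243 CPM with its 3 h value beside the control. The 3 h and 6 h values share the control library.

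The amino acid response had the lowest median of the same lists, at -0.72. Of 26 ATF4 targets and amino acid supply genes 8 fell, 30.8% against 4.72% of all genes, and 0 rose. Atf4, the transcription factor at the head of this response, went from 182 to 63.6 CPM (-1.50). Chac1, which degrades glutathione, went from 26.2 CPM to 1.01 CPM, 2753 UMIs against 25 (-3.76). Ddit3, which encodes CHOP, stood at 25.4 and 8.14 CPM (-1.53), its partner Cebpg at 31.2 and 12.4 CPM (-1.27), and the pseudokinase gene Trib3 at 38.6 and 15.5 CPM (-1.26). The neutral amino acid carrier Slc1a4 (-1.58), the cysteine-forming enzyme Cth (-1.32) and the serine synthesis enzyme Psph (-1.07) completed the 8. The other 18 stayed within 2-fold, among them the asparagine synthetase gene Asns at -0.29 and Cbs at 0.48. None of 20 aminoacyl-tRNA synthetases passed 2-fold, with a median of -0.05.

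Of 26 genes of the response to unfolded protein in the endoplasmic reticulum 4 fell and 1 rose, with a median of -0.24. These were 15.4% and 3.85%, against 4.72% and 2.36% of all genes. Herpud1, which serves the degradation of faulty ER proteins, went from 34.4 CPM over 7.13 CPM to 3.57 CPM in control, 3 h and 6 h cells (-2.96). Xbp1, a transcription factor of the response, went from 15.5 to 5.71 CPM (-1.30), Selenos from 60.4 to 24.8 CPM (-1.25) and Sdf2l1 from 29.0 to 12.2 CPM (-1.18). Crebrf was the 1 riser, from 23.2 to 57.3 CPM (1.27). The chaperone genes Hspa5, Hsp90b1, Calr and Canx stayed within 2-fold, with Hspa5 (BiP) at 388 and 262 CPM (-0.56), Hsp90b1 at -0.17, Calr at 0.10 and Canx at 0.53.

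Promoter sequence is shown for 4 of these genes, because the amino acid and ER groups hold known response elements and their members moved to different extents. The window runs from 250 bases before to 50 bases after the start in RefSeq on GRCm38.p6, and 6433 of the 8056 genes had one. Capitals mark a match to the ATF4 core TGATGNAA on the reverse strand for Chac1 (chr2:119350992-119351291, plus strand), Trib3 (chr2:152344011-152344310, minus strand) and Herpud1 (chr8:94386179-94386478, plus strand). For Hspa5 (chr2:34771840-34772139, plus strand) they mark the ER stress element, CCAAT and CCACG with 9 bases of any kind between them, which contains the shorter motif CCAAT.
Chac1: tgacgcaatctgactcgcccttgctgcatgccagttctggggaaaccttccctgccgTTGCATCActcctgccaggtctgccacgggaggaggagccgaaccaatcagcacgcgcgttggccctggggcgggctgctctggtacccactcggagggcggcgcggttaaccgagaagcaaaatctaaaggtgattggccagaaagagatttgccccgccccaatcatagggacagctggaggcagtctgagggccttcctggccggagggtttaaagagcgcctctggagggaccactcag
Trib3: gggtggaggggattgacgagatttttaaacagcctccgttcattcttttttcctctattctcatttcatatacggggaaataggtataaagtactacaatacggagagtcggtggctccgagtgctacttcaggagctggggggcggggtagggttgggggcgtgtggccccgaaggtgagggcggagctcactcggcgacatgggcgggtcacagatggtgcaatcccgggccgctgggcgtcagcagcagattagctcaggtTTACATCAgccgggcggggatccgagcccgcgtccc
Herpud1: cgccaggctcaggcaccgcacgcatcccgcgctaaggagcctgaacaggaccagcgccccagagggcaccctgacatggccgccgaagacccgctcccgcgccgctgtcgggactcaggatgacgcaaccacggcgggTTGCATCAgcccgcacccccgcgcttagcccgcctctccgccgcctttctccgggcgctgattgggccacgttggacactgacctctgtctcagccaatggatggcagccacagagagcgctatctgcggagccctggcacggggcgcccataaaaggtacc
Hspa5: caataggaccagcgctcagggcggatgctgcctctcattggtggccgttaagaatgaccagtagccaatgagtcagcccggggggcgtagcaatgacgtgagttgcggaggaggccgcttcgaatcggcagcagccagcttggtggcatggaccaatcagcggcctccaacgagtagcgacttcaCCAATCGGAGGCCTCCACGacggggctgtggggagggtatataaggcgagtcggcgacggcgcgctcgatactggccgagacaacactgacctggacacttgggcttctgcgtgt

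Both strands were searched. The ATF4 core was present in 6 of 22 promoters of the amino acid group, 27.3%, against 1.97% of all 6433. The 6 were Chac1, Trib3, Slc1a4, Asns, Pycr1 and Nupr1, of which the first 3 fell and the others did not pass 2-fold. In the form marked above, the ER stress element was present in 7 of 21 promoters of the ER group and in 0.140% of all. None of the 7 carriers of this form, Hspa5, Hsp90b1, Calr, Canx, Pdia6, Dnajc3 and Creld2, passed 2-fold. Other spacings and orientations of its parts were not searched, such as attgggccacg in the Herpud1 sequence above. Among all genes past 2-fold the ATF4 core was rare in both directions, in 3.31% of 302 promoters of genes that fell and 2.86% of 140 of genes that rose. CCAAT was present in 47.0% and 38.6% of them, against 40.03% of all, and the cyclic AMP element TGACGTCA in 4.97% and 0.714%, against 3.84% of all.

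Targets of p53 had the highest median of all lists with at least 5 genes compared. Of these 28 genes, 9 rose and 2 fell, with a median of 0.39 beside -0.13 for all genes. The shares were 32.1% and 7.14%, against 2.36% and 4.72% of all genes. Mdm2, the ubiquitin ligase that turns p53 over, stood at 85.3, 88.5 and 243 CPM in control, 3 h and 6 h cells (1.50, counting interval 1.46 to 1.56). The translesion polymerase gene Polk went from 28.7 to 87.3 CPM (1.57) and the receptor gene Eda2r from 19.2 to 51.5 CPM (1.38). Ddit4l (1.42), the kinase gene Plk2 (1.33), the death receptor gene Tnfrsf10b (1.21), Zmat3 (1.09), Phlda3 (1.07) and Dcxr (1.04) completed the 9. The transcript of p53 itself, Trp53, stood at 305 and 247 CPM (-0.31). Cdkn1a, the CDK inhibitor p21, stood at 15.4, 9.13 and 22.2 CPM in control, 3 h and 6 h cells (0.51), and Bax, a mediator of apoptosis, at 468 and 525 CPM (0.17). Ddb2, a sensor of damaged DNA, fell (-1.02), as did Epha2 (-1.41). Ddb2 and Dcxr were short of 2-fold under 3 and 1 alternatives. Apaf1, the scaffold of the apoptosome and outside this list, was among the 20 largest rises, at 19.1, 23.0 and 67.1 CPM in control, 3 h and 6 h cells (1.76).

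Of the cell cycle lists, none of the 60 S-phase replication genes passed 2-fold, with a median of -0.22. Of 65 G2/M and mitosis genes 6 fell, 9.23% against 4.72% of all genes, and 0 rose, with a median of -0.40. Fbxo5, which encodes the APC/C inhibitor Emi1, went from 133 CPM over 27.9 CPM to 25.04 CPM in control, 3 h and 6 h cells (-2.36). Cdk1, the mitotic kinase, went from 143 to 47.8 CPM (-1.56). The cohesin protectors Sgo1 (-1.30) and Sgo2a (-1.01), the kinase genes Aurkb (-1.29) and Plk4 (-1.21) completed the 6, while Ccnf stood at 0.49. Sgo2a was short of 2-fold, at -0.96, with equal weight for each cell. Among 20 G1 cyclins and CDK inhibitors 2 fell and 2 rose, against 7.08% of all genes past 2-fold either way. The CDK inhibitor genes Cdkn1b, 35.8 to 9.56 CPM (-1.80), and Cdkn2d (-1.18) fell. The pocket protein genes Rb1, 23.1 to 54.1 CPM (1.19), and Rbl2, 19.3 to 47.5 CPM (1.26), rose.

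Histone and zinc finger genes held many of the falls. Of 66 replication-dependent histone genes 22 reached 10 CPM, of which 7 fell and 0 rose, with a median of -0.64. The share that fell was 31.8%, against 4.72% of all genes. Hist1h2ap gave the lowest ratio of all named genes, at 556, 39.98 and 16.3 CPM in control, 3 h and 6 h cells (-5.01). Hist1h1b, a linker histone, stood at 1009, 152 and 396 CPM (-1.35), so its lowest value was at 3 h. Most histone messages end without a poly(A) tail and their copies are nearly identical, so their capture by poly(A) and the split of reads between copies are uncertain. Of 135 numbered zinc finger genes 32 fell and 1 rose, 23.7% and 0.741% against 4.72% and 2.36% of all genes. Their median was -0.66. Zfp296 (-2.36), Zfp990 (-2.03), Zfp553 (-1.76) and Zfp281 (-1.71) gave the lowest ratios, and Zfp365, 8.77 to 25.4 CPM (1.43), was the 1 riser. Of 7 zinc finger genes compared in a window from 145 to 150 Mb of chromosome 4, 5 fell, Zfp980, Zfp984, Zfp985, Zfp990 and Zfp992. Zfp980 and Zfp992 were short of 2-fold under 2 and 1 alternatives. This window, chosen after the values were seen, holds near-identical copies whose reads may be split, and in all 6 of its 32 genes fell and 0 rose.

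**Figure D3:**
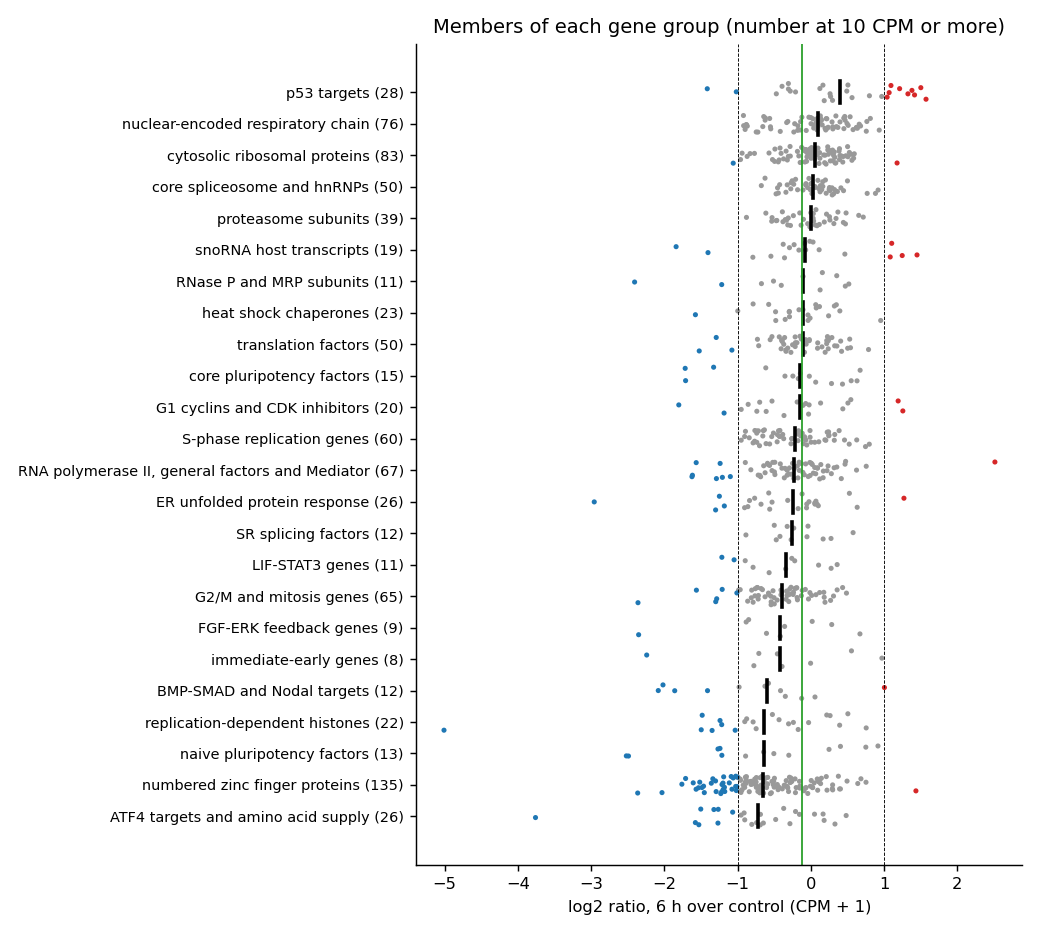
Log2 ratio of 6 h over control (horizontal axis) for the members of 24 gene groups at 10 CPM or more, 1 point per gene, blue and red past 2-fold, with group medians as black bars. The green line marks the median of all genes at -0.13. The p53 targets lie at the top with a median of 0.39 and the ATF4 targets at the bottom with -0.72.

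Genes of RNA production fell in part and in no uniform way. Of 67 genes of RNA polymerase II, its general factors and Mediator 7 fell and 1 rose. These were 10.4% and 1.49%, against 4.72% and 2.36% of all genes. The Mediator subunit genes Med7, 49.9 to 15.5 CPM (-1.62), Med30 (-1.62) and Med31 (-1.57) fell. So did the initiation factor Gtf2b (-1.29) and the polymerase subunit genes Polr2h (-1.24), Polr2d (-1.21) and Polr2l (-1.10). Cdk8, the kinase that joins Mediator in a separate module, was the riser and at 6 h the most abundant of the 23 genes up 4-fold, at 78.4, 326 and 452 CPM in control, 3 h and 6 h cells (2.51). Of 11 RNase P and MRP subunits, which process tRNA and rRNA precursors, Rpp38 (-2.41) and Pop7 (-1.22) fell, a share of 18.2%. Of 19 snoRNA host transcripts 4 rose, Snhg12 (1.45), Snhg20 (1.25), Snhg9 (1.10) and Snhg4 (1.08), and 2 fell, Snhg8 (-1.84) and Snhg6 (-1.40). These were 21.1% and 10.5% of the list. None of 12 SR splicing factors and none of 50 core spliceosome and hnRNP genes passed 2-fold. The SR ratios ran from -0.89 for Srsf7 to 0.58 for Srsf11.

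The machinery of protein and energy supply had medians near 0. They were 0.05 for 83 cytosolic ribosomal proteins, 0.10 for 76 nuclear-encoded respiratory chain genes and 0.00 for 39 proteasome subunits. The exceptions among ribosomal genes were Rps15, 2027 to 4585 CPM (1.18), and Rpl9, 1823 to 874 CPM (-1.06). Of 50 translation factors 3 fell, 6%, near the 4.72% of all genes. They were Eef1e1 (-1.52), the poly(A)-binding protein gene Pabpc1, 809 to 330 CPM (-1.29), and the start codon factor gene Eif1, 1129 to 534 CPM (-1.08). Polyubiquitin gene Ubb went from 1013 to 339 CPM (-1.58). It was the 1 of 23 heat shock chaperones and partners past 2-fold, a share of 4.35%. The actin-binding profilin gene Pfn1 went from 594 to 178 CPM (-1.73). Of the nuclear noncoding RNAs, Malat1 stood at 3185 and 2355 CPM (-0.44), Neat1 at 72.7 and 121 CPM (0.72), and Kcnq1ot1, the imprinted antisense RNA, fell from 139 to 41.6 CPM (-1.72).

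Of 20 metallothionein and oxidative stress genes 2 fell and 1 rose, 10% and 5% against 4.72% and 2.36% of all genes. Ftl1, the light chain of the iron store ferritin, went from 179 to 59.4 CPM (-1.58), and Sod2, the mitochondrial superoxide dismutase gene, from 224 to 96.8 CPM (-1.20). Its cytosolic counterpart Sod1 went the other way, from 174 to 351 CPM (1.01), short of 2-fold under 5 alternatives. Of 36 chromatin remodeller genes Chd2 alone passed 2-fold, from 104 to 295 CPM (1.49). The share that rose, 2.78%, was near the 2.36% of all genes. Of 35 genes of P-TEFb and pause control 2 fell, 5.71%, near the 4.72% of all genes. They were Brd2, a bromodomain reader of acetylated histones, from 176 to 76.8 CPM (-1.19), and the elongation factor gene Ell2 (-1.02). Ell2 was short of 2-fold under 2 alternatives. Of only 5 Notch and Hippo genes compared 1 fell, or 20%, which was Hes1 (-1.27).

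Beyond these lists, some of the falls belonged to small functional sets, named here after their values were seen. Assembly of iron-sulfur clusters was represented by Iscu (-1.35), Isca2 (-1.34) and Bola3 (-1.18), and copper delivery to cytochrome oxidase by Cox17, 152 to 49.8 CPM (-1.59), and Sco2 (-1.06). Small nuclear RNA making and handling was represented by Lsm8 (-1.60), Lsm5 (-1.22), Toe1 (-1.16), Gemin6 (-1.16) and Snapc1 (-1.04), the last short of 2-fold under 2 alternatives. Only members that fell are listed, so these sets say nothing of their pathways as wholes.

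Some genes moved between 3 h and 6 h. By a rule chosen after seeing the values, the 15 genes in each direction whose 6 h ratio lay furthest beyond their 3 h ratio were taken, and both ratios share the control library. Among the late rises Klhl26 stood at -0.17 and 1.60 at 3 h and 6 h, Apaf1 at 0.26 and 1.76, Susd6 at -0.26 and 1.24, and Mdm2 at 0.05 and 1.50. Among the late falls Id3 stood at -0.46 and -2.02, Ubb at -0.57 and -1.58, Xbp1 at -0.33 and -1.30, Mycn at -0.68 and -1.66, and the mitochondrial ADP/ATP carrier gene Slc25a5 at -0.23 and -1.14. Ppia, which encodes cyclophilin A and is among the most abundant messages, stood at 2720, 2613 and 1336 CPM in control, 3 h and 6 h cells (-0.06 and -1.02). Other changes were complete at 3 h, with Chac1 at -3.72 and -3.76 and Sox2 at -1.34 and -1.33. Tapbpl was higher at 3 h than at 6 h, at 4.69, 55.1 and 19.3 CPM.

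The 20 largest rises among genes without predicted names ran from genes near 1 CPM in the control to Cdk8 at 78.4 CPM. Mcmdc2, a meiotic MCM-like gene, stood at 1.52, 30.3 and 44.4 CPM in control, 3 h and 6 h cells (4.17). It was followed by Fam83e (3.50), the cytokine receptor gene Il12rb2 (3.49), Rab26os (3.27), Pram1 (3.23) and Ifi35 (2.80). Lpin1, a phosphatidate phosphatase, went from 6.61 to 38.0 CPM (2.36), and Cpt1c, a brain-type relative of carnitine palmitoyltransferase, from 18.2 to 89.0 CPM (2.23). The others of the 20 largest were Slc16a4 (2.55), Svop (2.28), Slc22a14 (2.27), Fermt3 (2.26), Msh4 (2.17), Mmrn2 (2.02), Lrrc75a (1.90), Tapbpl (1.84), Prrg4 (1.83), Rpgrip1 (1.79), Cdk8 and Apaf1. Those of the 20 largest falls not yet given were Smim26 (-2.70), Mir124a-1hg (-2.56), the coactivator gene Cited2 (-2.39), the stress kinase gene Plk3 (-2.39), the Elongator partner Kti12 (-2.14), Gnpda2 (-1.96) and Ppp1r35 (-1.88). By GENCODE M21 on GRCm38, 5 of the 20 largest rises began within 5 kb downstream of a gene at 10 CPM or more on the same strand. Fam83e lay 376 bases past Rpl18, Ifi35 2878 past Rpl27, Fermt3 1233 past Stip1, Cpt1c 1138 past Prmt1 and Msh4 1149 past Rabggtb. Such positions were held by 13.7% of the 190 genes that rose, by 19 of the 380 that fell and by 7.78% of all. Mcmdc2 overlaps Snhg6 on the other strand and Il12rb2 overlaps Serbp1. Whether counting used strand is not given in the sources used here, and without it such partners cannot be told apart. Of the genes that rose 26.3% had an antisense overlap, against 12.1% of those that fell and 15.3% of all. The minimum on the mean lets in genes under 10 CPM in the control only where they were higher at 6 h. The shares of antisense and downstream positions may in part follow from it, which was not tested.

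The genes that fell were short, and genes with few exons were frequent in both directions. The falls had a median annotated span of 12.2 kb and 5 exons. All genes compared had 27.5 kb and 10 exons, and the rises 37.2 kb and 8 exons. Genes with up to 3 exons made up 32.4% of the falls, 23.2% of the rises and 10.8% of all. Of single-exon genes 7.53% rose, against 2.36% of all genes. Of 146 single-exon genes 20.5% fell, of 724 genes with 2 or 3 exons 12.8%, of 1865 genes with 7 to 10 exons 3.38%, and of 674 genes with more than 25 exons 0.445%. Leaving out the numbered zinc finger and histone genes, the first and last of these shares were 17.6% of 125 and 0.446% of 672 genes. By span the share that fell went from 10.4% of genes up to 5 kb to 1.61% of those from 40 to 80 kb, and was 4.09% above 160 kb. Klf2, Id1, Ier2 and Cited2 belong to the short genes, with 3, 1, 1 and 1 exons in their longest basic transcript. Exon numbers here are all of that transcript, and other transcripts of a gene may differ. Noncoding genes made up 26.3% of the rises, 3.95% of the falls and 2.66% of all. This share of the rises, and that of genes with few exons, may in part be set by the filter on the mean. A gene under 10 CPM in the control passes that filter only where it is higher at 6 h. Whether reads in introns were counted is not given in the sources used here, and how this touches long genes was not tested.

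**Figure D4:**
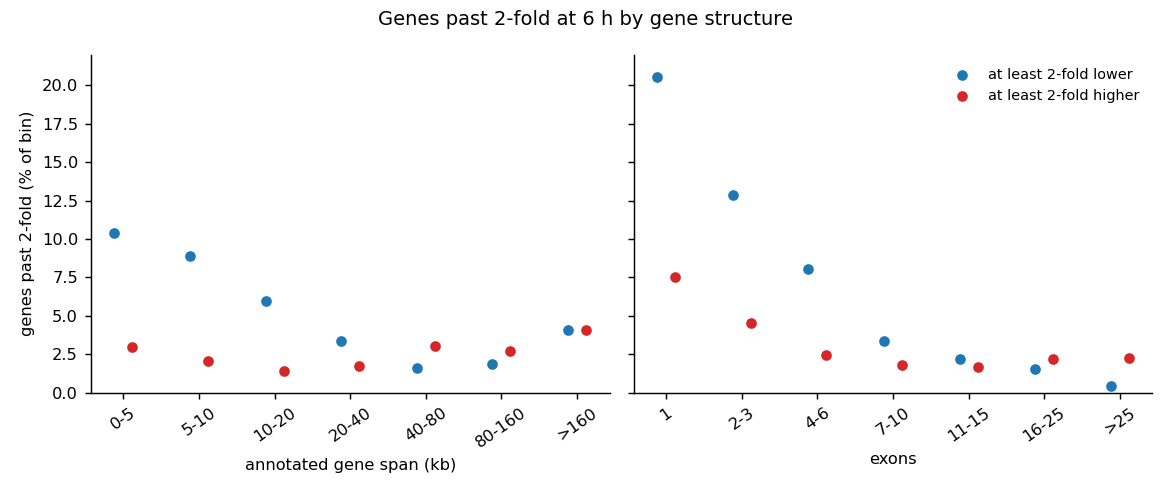
Share of genes at least 2-fold lower (blue) and at least 2-fold higher (red) at 6 h, in percent of the genes of each bin, by annotated gene span in kb (left) and exon number (right). The share lower runs from 20.5% of single-exon genes to 0.445% of genes with more than 25 exons.

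The falls were spread over the cells. Each cell was thinned to 2000 UMIs, which left out no cell. The 380 genes that fell made up a median of 3.10% of the UMIs of a control cell and 1.25% of a 6 h cell, with 10th to 90th percentiles of 2.55% to 3.65% and 0.90% to 1.60%. All 2926 cells at 6 h lay below the control median. The 190 genes that rose made up 0.70% and 1.70%, and 99.8% of the 6 h cells lay above the control median. These shares describe genes chosen on the same cells. For the p53 targets the medians were 0.15% and 0.20%, the 2 libraries overlapped widely, and 59.7% of 6 h cells lay above the control median.

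**Figure D5:**
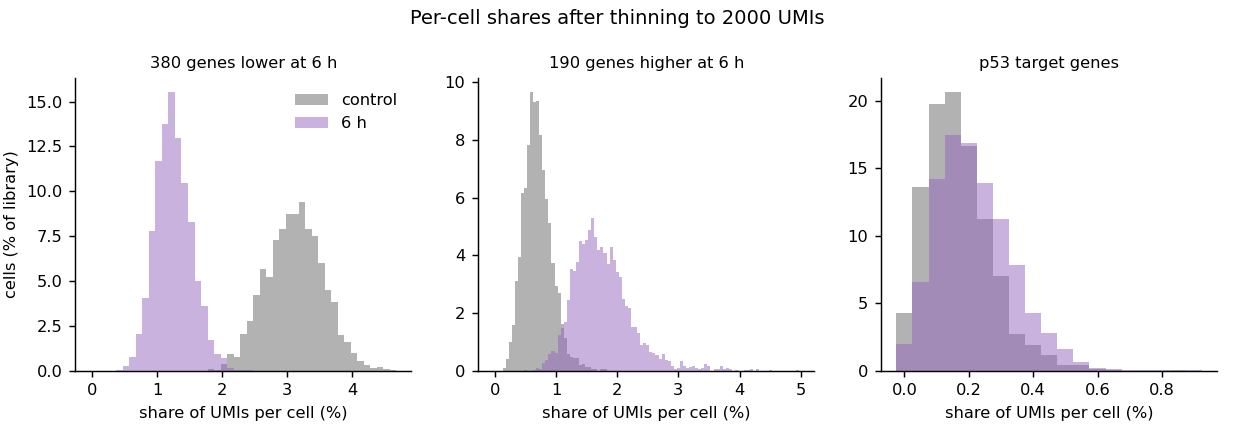
Share of a cell's 2000 UMIs (horizontal axis, percent) that came from the genes lower at 6 h, the genes higher at 6 h and the p53 targets, as the percent of cells of each library in each bin. Control cells are grey and 6 h cells purple, with medians of 3.10% and 1.25%, 0.70% and 1.70%, and 0.15% and 0.20%.

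Single genes showed 2 patterns across cells at this equal depth. Klf2 was detected in 35.1% of control cells (33.0% to 37.2%) and 7.31% of 6 h cells (6.40% to 8.32%), and a Poisson draw of the same mean would give 7.50%. Without thinning these shares were 98.1% and 24.9%. Mdm2 was detected in 13.3% and 32.9% of cells, where a Poisson draw would give 37.0% at 6 h. The variance of Mdm2 over its mean was much the same in both libraries, 1.29 in the control and 1.31 at 6 h. Slc25a13, a mitochondrial aspartate-glutamate carrier gene, stood at 165, 304 and 480 CPM in control, 3 h and 6 h cells (1.53) and had the highest variance over mean at 6 h among the 55 of the 190 risen genes abundant enough for this measure. It was detected in 25.7% of control cells and 41.7% of 6 h cells (39.9% to 43.5%), where a Poisson draw of its 6 h mean would give 61.9%. Its variance over its mean was 1.29 in the control and 2.77 at 6 h. Cdk8 was detected in 14.7% and 47.9% of cells, with 57.3% by a Poisson draw. No other cell type was identified that could give the share of cells that free RNA alone would mark.

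Free RNA was measured in barcodes ranked beyond 5000 and up to 15000 in UMIs, which lie below the cell minimum. The mean barcode of this kind, taken from every cell, would account for a median of 1.07% of the 6 h UMIs of the genes that rose and 1.31% of those that fell. The exception was Camk1d, a calcium-dependent kinase gene at 287 CPM in control cells and 701 CPM in 6 h cells (1.28). It made up 26276 CPM of these barcodes in the control and 32620 CPM at 6 h, which would account for 61.4% and 78.0% of its UMIs in cells. Its ratio was 0.49 after this subtraction, and it is included in the 190. The other genes for which this share reached 10% were the clone names AY036118 and Gm15564, at 22.6% and 20.9%. Cdk8 stood at 348 and 493 CPM in these barcodes, which would account for 2.98% and 1.83% of its UMIs in cells.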

How the data were processed

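The authors deposited whole UMI counts for every gene in every barcode, unfiltered, made with Cell Ranger 7.1.0 on mm10, per the submitters' processing notes. The annotation, the counting of intronic reads and the use of strand are not given in the sources used here. The matrices hold 32285 genes, with total UMIs of 115656427 (control), 35374540 (3 h) and 29353325 (6 h).

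The cell minimum was 1/10 of the 99th percentile of UMIs among the top 3000 barcodes of a library. The mitochondrial limit removed 0 control and 1 6 h barcodes. Doublets were kept and no caller was run; leaving out cells with high UMIs was an alternative. A gene without a UMI could stand at up to 0.0286 CPM in control cells and 0.122 CPM in 6 h cells, the level of 3 counts. Counts were summed over cells and scaled to CPM, and genes were called by size at 2-fold on log2 of CPM + 1, which understates the change of low genes. Counting intervals are exact conditional binomial intervals of the ratio without that 1 CPM, and Clopper-Pearson intervals go with shares of cells. No p-value is given, since each condition had 1 library. Exon numbers are those of the longest basic transcript in GENCODE M21.

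Genes were named by rule: the 20 largest ratios in each direction without predicted names, list members past 2-fold or at the ends of a list, and Pou5f1, Sox2, Nanog, Mdm2, Cdkn1a, Malat1 and Neat1. Some genes that meet this rule are not reported here. The members and lists were chosen with earlier results of these data known. The statistics were tested on simulated counts. TMM factors came from edgeR 4.0.16 in R 4.3.3, and all other steps from scipy 1.17.1, numpy 2.4.6, pandas 2.3.3 and matplotlib 3.10.9 in Python 3.11.15.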

Additional observations from a re-analysis of the deposited data

Results flagged for a closer look

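Barcodes outside the called cells, which the comparisons do not use, held 15.9% of the UMIs at 6 h and 9.31% in the control. In those ranked beyond 5000 and up to 15000, with medians of 138 UMIs at 6 h and 343 in the control, all 380 genes that fell in cells had at least 10 UMIs in the control. The ratio of 6 h over control in these barcodes was below 0 for 379 of them and past 2-fold for 288, with a median of -1.29 beside -1.21 in cells. Of 175 genes that rose in cells and had at least 10 UMIs, 152 had a ratio above 0 and 50 passed 2-fold, with a median of 0.65 beside 1.25 in cells. Over all 8039 genes with at least 10 UMIs, 5571 had a ratio below 0 in these barcodes and 2468 above 0. Of the 8039, 1042 were past 2-fold lower and 104 past 2-fold higher, with a median of -0.30 beside -0.13 in cells.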

How the results depend on the processing

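The counts of genes past 2-fold, 190 higher and 380 lower, stayed between 174 and 210 and between 365 and 447 when the cell minimum was halved or doubled, when the mitochondrial limit was 10%, without cells above 2 times the median UMIs, with totals without mitochondrial genes, with median-of-ratios or TMM factors, with a pseudocount of 0.1 CPM, with equal weight for each cell, and with 3 ways of subtracting free RNA. A minimum of 50 CPM left 51 higher and 84 lower, and no minimum gave 679 and 707, because other numbers of genes were compared. UMIs per cell without scaling moved the median gene by -2.40 and gave 5 higher and 7989 lower. Of 138 named genes past 2-fold, 127 stayed past it in the same direction under all 12 alternatives other than UMIs per cell. The 11 that did not were Lefty2, Ell2, Ddb2, Zfp980, Zfp992, Dcxr, Sgo2a, Snapc1, Sod1, mt-Nd3 and Camk1d. All but Camk1d kept their sign, and of these mt-Nd3 came nearest to 0, at -0.8965 with free RNA subtracted. Camk1d gave -7.61 with free RNA subtracted at 10% of UMIs, 0.00 with the second profile and 0.49 with the mean background barcode, the last 2 chosen after seeing the data. Under UMIs per cell the following rises changed sign, by the construction of that scale: Sod1 -1.59, Snhg4 -1.50, Phlda3 -1.48, Snhg9 -1.45, Rps15 -1.44, Zmat3 -1.43, Snhg20 -1.33, Camk1d -1.32, Susd6 -1.32, Dcxr -1.31, Rb1 -1.29, mt-Nd5 -1.29, Lefty2 -1.24, Crebrf -1.22, Rbl2 -1.21, Tnfrsf10b -1.16, Snhg12 -1.13, Eda2r -1.10, Chd2 -1.10, Mdm2 -1.08, Slc25a13 -1.07, Plk2 -1.02, Polk -0.96, Ddit4l -0.95, Klhl26 -0.93, Zfp365 -0.92, Apaf1 -0.75, Rpgrip1 -0.61, Prrg4 -0.57, Tapbpl -0.45, Lrrc75a -0.40, Mmrn2 -0.31, Cpt1c -0.31, Svop -0.16, Msh4 -0.15, Slc22a14 -0.087, Cdk8 -0.086, Lpin1 -0.078, Fermt3 -0.014. Of the 24 list medians, 0 were past 2-fold, 4 changed sign under UMIs per cell, and 2 that lay near 0, those of the core spliceosome and hnRNPs (0.04) and the proteasome subunits (-0.00051), changed sign under another alternative. Thinning to 4000 UMIs, which left out 284 cells at 6 h, gave 53.1% of 6 h cells with Mdm2. No paired analysis was possible because each condition had 1 library, and for the same reason no replicate could be left out.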

Other observations

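Camk1d is a value to look at before it is read as a late response gene. It stood at 287, 214 and 701 CPM in cells of the control, 3 h and 6 h libraries, and at 26276 and 32620 CPM in the low barcodes of the control and 6 h libraries. Of the 190 genes that rose, 22 had at least 2 times their cell level in those barcodes at 6 h, against 1 of the 380 that fell and 59 of all 8056.

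Uneven spread over cells was more frequent among the rises. Of 55 genes that rose and were abundant enough after thinning, 6 had a variance over mean above 1.5 at 6 h and 0 in the control. Over all 4789 such genes the numbers were 60 and 21. Among the 6 were Camk1d and AY036118, whose free RNA shares are given above. The genes were not matched on their mean level, which for the rises was higher at 6 h by selection. Slc25a13 had at least 5 UMIs of 2000 in 142 of 2926 cells at 6 h and in 2 of 2031 control cells.

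Some mitochondrially encoded genes moved apart within 1 polycistronic genome. mt-Nd5 stood at 269, 768 and 672 CPM in control, 3 h and 6 h cells (1.32), and mt-Nd3 at 444, 221 and 219 CPM (-1.02, short of 2-fold under 5 alternatives), while the median of the 13 genes was 0.02.

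The genes nearest to the 2-fold line were Gpcpd1 (-1.002) and Timm9 (-1.001) just inside it, Rnf34 (-0.9995) and Churc1 (-0.998) just outside, and, among the higher, 1500004A13Rik (1.002) and Src (1.003) inside and Ly6e (0.998) and Ppp1r14a (0.999) outside.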
